A study of Mus musculus with 4 samples.

Results

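Resident Lyve1 Folr2 macrophages of the mouse aorta are described here in 4 single-cell RNA libraries. They are 320 cells selected on their own transcripts, out of 37865 barcodes with at least 1000 unique molecular identifiers (UMIs, each the count of 1 captured RNA molecule) and at most 10% of their UMIs from mitochondrial genes. The 4 deposited matrices hold 70795 barcodes. A cell was a member when its UMIs of C1qa, C1qb and C1qc summed to at least 5, those of Lyve1, Folr2, Cd163, F13a1, Cbr2 and Mrc1 (the 6 resident genes) to at least 3, those of Gpnmb, Trem2 and Mmp12 (the foam genes) to at most 1, and those of the lymphocyte genes Cd79a, Ms4a1 and Cd3e to 0. These 15 genes chose the cells, so their levels in the members are a description.

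Each library came from digested aorta and stands for 1 group, with 1 library per group. Normal diet was given to WT and to LysM-DKO mice, and western diet to WT/ApoE-/- and to LysM-DKO/ApoE-/- mice. ApoE-/- occurs only together with western diet, so diet and ApoE genotype cannot be told apart, and the WT control of the western diet pair carries ApoE-/- too. LysM is another name of lysozyme M, the product of Lyz2. The series names epsins as its subject, but its labels do not spell out DKO, nor the animals per library, their age or whether they were pooled. With 1 library per group there is no test between groups and no p-value: 95% intervals printed with a value cover counting error only, not the spread between animals. Values for a pair of libraries on the same diet are given with the WT library first, and LysM-DKO means the library so labelled.

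Lyve1 Folr2 macrophages sit in the adventitia and around vessels of many tissues, where much of the population is seeded early in life and renews itself locally. Lyve1 is a receptor for hyaluronan, Folr2 a folate receptor, Cd163 the scavenger receptor for hemoglobin bound to haptoglobin, F13a1 the A subunit of coagulation factor XIII, Cbr2 a carbonyl reductase and Mrc1 the mannose receptor. In the arterial wall such cells are known for contact with smooth muscle and for turnover of collagen, and they are usually set apart from the Trem2 foamy macrophages of plaques.

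Macrophage markers that did not choose the cells were present. Of 10 such genes, 10 were detected in the members of each library. Csf1r, the receptor for macrophage colony-stimulating factor, was at 717 and 731 CPM under normal and 606 and 893 CPM under western diet (CPM, counts per 1000000 UMIs summed over the members of a library), against 0.765 to 6.21 CPM in all barcodes outside the C1q-high cells, called the rest barcodes. Adgre1, which encodes F4/80, was at 402 and 479.9 CPM under normal and 365 and 326 CPM under western diet. Lymphatic endothelium is the other Lyve1 cell type of vessels, and its 5 markers (Prox1, Mmrn1, Reln, Ccl21a and Flt4) gave 3, 5, 0 and 1 UMIs in the members of the 4 libraries, with 2, 3, 0 and 1 of the genes detected and Reln and Flt4 at 0 in all 4.

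Markers of other cells differed between the libraries. The summed level of 6 fibroblast markers (Col1a1, Col1a2, Col3a1, Dcn, Lum and Pdgfra, all detected in each library) was 790.4, 617, 7451 and 719 CPM in WT, LysM-DKO, WT/ApoE-/- and LysM-DKO/ApoE-/-, the order used for all series of 4 values. The WT/ApoE-/- western diet library stands apart, and a small number of its members held nearly all of that signal: 13 of its 81 members (16.05%) had 10 or more fibroblast-marker UMIs and carried 95.9% of them, against 4 of 66, 4 of 117 and 3 of 56 members in the other libraries. Without these cells, called fibroblast-marker cells below, the sum was 335, 442, 489.8 and 327 CPM. In WT/ApoE-/- the 13 cells had a median of 9520 UMIs against 3420.5 in its other members, a median C1q sum of 7 against 31, and a median of 2 resident genes seen against 3. A single barcode with 26759 UMIs held 1402 of the 1727 Spp1 UMIs, 123 of the 124 Mmp13 UMIs and 166 of the 169 Hp UMIs of that library's members. Of the 13, 2 were among the barcodes marked for a high doublet score, a fixed number set at 1934 of the 15548 scored in that library. Whether the others are doublets was not tested. Counts of genes, list medians and the leading western diet genes are therefore also given without the fibroblast-marker cells where stated; the split by Lyve1, the MHC class II percentiles and the single-gene values against the foamy and neither sets use all members.

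The 5 smooth muscle markers, all detected, summed to 5851, 5458, 10629 and 7394 CPM, against 20309.6 to 38712 CPM in the rest barcodes. Acta2, smooth muscle actin, was seen in 66 of 66, 117 of 117, 71 of 81 and 53 of 56 members. Of 4 hemoglobin genes, 4, 4, 3 and 0 were detected, with sums of 245, 1144, 35.8 and 0 CPM, highest in LysM-DKO on normal diet. The 4 B cell markers summed to 95.6, 295, 128 and 78.7 CPM, nearly all of it Ighm at 28, 151, 48 and 14 UMIs, with Cd79a and Ms4a1 at 0 by the choice of cells. The 6 dendritic markers summed to 57.4, 91.4, 40.9 and 11.2 CPM with Flt3 at 0 in every library. Endothelial, neutrophil, T or NK, mast, adipocyte, thymocyte and Schwann lists were each at or below 85.7 CPM. The part of these markers in the differences below was not tested.

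Sex moved with diet. Xist, the RNA that silences an X chromosome, was at 1638 and 1354 CPM under normal and 0 and 0 CPM under western diet, and the Y-linked gene Ddx3y at 0 and 0 CPM under normal and 105 and 135 CPM under western diet. Sex, diet, ApoE genotype and the Cell Ranger version named in the file headers therefore cannot be told apart between the normal and western diet libraries, while the pairs on 1 diet match in sex. The libraries held 50662515 to 67450979 UMIs over all their barcodes. The members' UMIs summed to 313774, 525124, 391369 and 177981, so 1 UMI weighs most in LysM-DKO/ApoE-/-. Median UMIs per member were 4512.5, 4448, 3769 and 2788. Between pairs of libraries 38 to 129 barcode sequences were shared, and no shared barcode was a member in both.

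The series names epsins. Epn1, an epsin adaptor of clathrin-mediated endocytosis, was at 79.7 and 66.7 CPM under normal and 43.4 and 44.9 CPM under western diet in the members, from 25, 35, 17 and 8 UMIs. The genotype ratio (LysM-DKO divided by WT, log2) stood at -0.27 (interval -1.04 to 0.54) on normal diet and 0.09 (interval -1.37 to 1.34) on western diet. Epn2, the second widely expressed epsin, was at 38.2 and 47.6 CPM under normal and 35.8 and 22.5 CPM under western diet, with log2 ratios of 0.29 (interval -0.73 to 1.44) and -0.55 (interval -2.73 to 1.0); Epn3 had 1 UMI in all. Neither gene was distinguishably lower in LysM-DKO at this depth. The libraries count 3' ends, and no source used here says which part of an epsin gene is deleted, so these values do not check the genotype labels.

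Resident macrophages were 0.851% of passing barcodes in WT on normal diet (66 of 7758, exact binomial interval 0.659 to 1.08) and 1.42% in LysM-DKO on normal diet (117 of 8230, 1.18 to 1.70). They were 0.589% in WT/ApoE-/- on western diet (81 of 13744, 0.468 to 0.732) and 0.689% in LysM-DKO/ApoE-/- on western diet (56 of 8133, 0.521 to 0.893). The LysM-DKO library was higher by 0.571 percentage points on normal diet (Newcombe interval 0.243 to 0.904) and by 0.0992 on western diet (-0.113 to 0.334). The first interval lies above 0 and the second holds it. Among barcodes with at least 2000 UMIs the western diet order turned, to 0.909% in WT/ApoE-/- and 0.581% in LysM-DKO/ApoE-/-. The number of other passing barcodes sets this share too. Barcodes under 1000 UMIs, which the share leaves out, were 47.7% of those of WT/ApoE-/-, against 12.9% to 14.4% in the other libraries.

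Against all C1q-high cells, those with a C1q sum of at least 5 and no lymphocyte UMI, the order was different. These split into the members, a foamy set with at least 2 foam-gene UMIs, and a neither set with at most 2 resident and at most 1 foam UMIs. On normal diet the members were 77.6% of 85 C1q-high cells in WT (67.3 to 86.0) and 62.6% of 187 in LysM-DKO (55.2 to 69.5). On western diet they were 8.99% of 901 in WT/ApoE-/- (7.20 to 11.05) and 41.5% of 135 in LysM-DKO/ApoE-/- (33.1 to 50.3). With the selection applied to every cell thinned to 1000 UMIs, normal diet had 51.9% in WT (27 of 52) and 57.3% in LysM-DKO (75 of 131). The order of the point values thus turned, on few cells and with no interval computed. Western diet then had 6.81% (44 of 646) and 42.7% (50 of 117). The limits of the selection were not changed for the lower depth. The foamy set held 10, 32, 485 and 66 cells and the neither set 9, 38, 335 and 13. The members numbered 56 to 117 per library, and the foamy and neither sets differed far more between libraries.

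**Figure D1:**
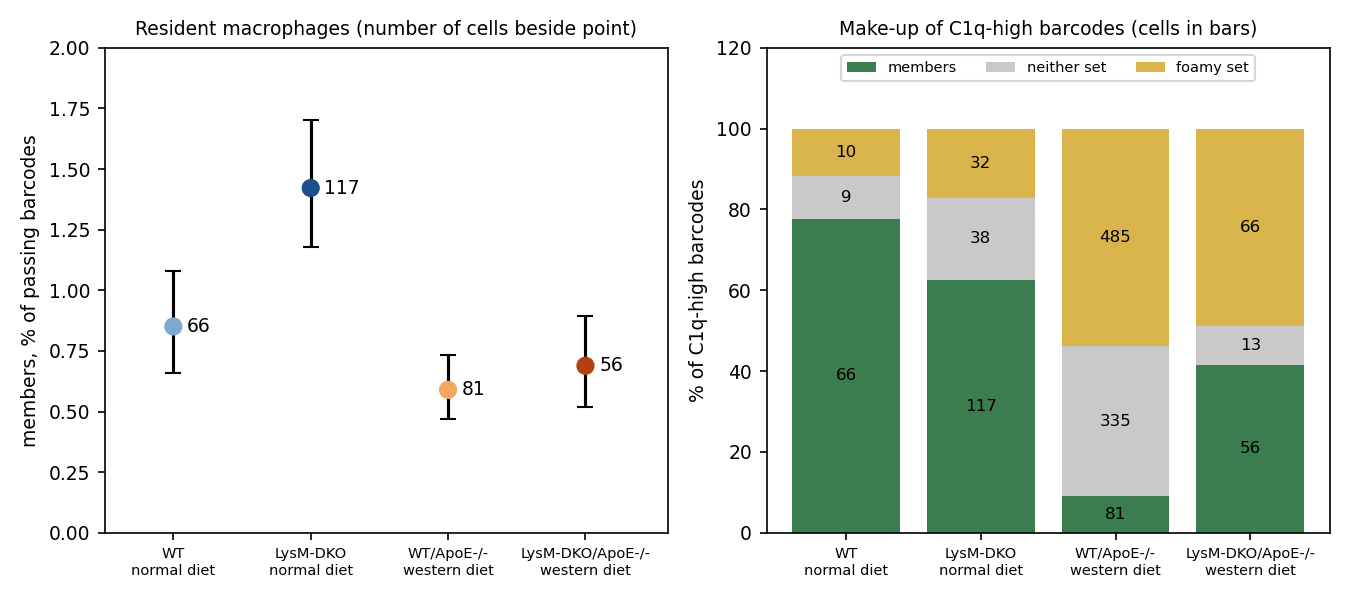
Left, members as a percentage of passing barcodes in each library, with exact 95% binomial bars for counting error and the number of cells beside each point. Right, the make-up of the C1q-high barcodes: members fill 77.6, 62.6, 8.99 and 41.5%.

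The limit on the resident sum had the most cells close to it in WT/ApoE-/-. There 12 of 81 members had a resident sum of exactly 3, and 31 cells that met every other limit had 2. In the other libraries 4, 3 and 1 members stood at 3, and 3, 11 and 2 cells at 2, in the order WT, LysM-DKO and LysM-DKO/ApoE-/-. A C1q sum of 5 was found in 1, 0, 5 and 0 members and a sum of 4 just outside in 2, 2, 4 and 1 cells. A single foam UMI was carried by 13, 21, 27 and 15 members, while 4, 12, 11 and 6 cells were left out for 2, and 3, 7, 2 and 0 for a single lymphocyte UMI. Median resident sums were 14, 15, 8 and 18, lowest in WT/ApoE-/-.

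The 6 resident genes differed in how well they mark these cells. Mrc1 was at 1316 and 1622 CPM under normal and 1576 and 2483 CPM under western diet and at no more than 5.43 CPM in the rest barcodes. Folr2 (GRCm38 chr7:101839988-101857194, minus strand) was at 296 and 354 CPM under normal and 112 and 455 CPM under western diet, with 0.267 to 3.32 CPM in the rest. Lyve1 (chr7:110850607-110863239, minus strand) was at 351 and 270.4 CPM under normal and 181 and 876 CPM under western diet, with 12.4 to 23.7 CPM in the rest. Each was lowest in WT/ApoE-/- and highest in LysM-DKO/ApoE-/- except Mrc1, lowest in WT on normal diet. Cd163 (548 and 479.9 CPM under normal and 164 and 848 CPM under western diet) and F13a1 (966 and 1139 CPM under normal and 491 and 1365 CPM under western diet) had that same order at the ends. Cbr2 separated members from other cells least: it was at 201 and 364 CPM under normal and 217 and 359.6 CPM under western diet in members and at 131, 107, 151 and 179 CPM in the rest barcodes.

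**Figure D2:**
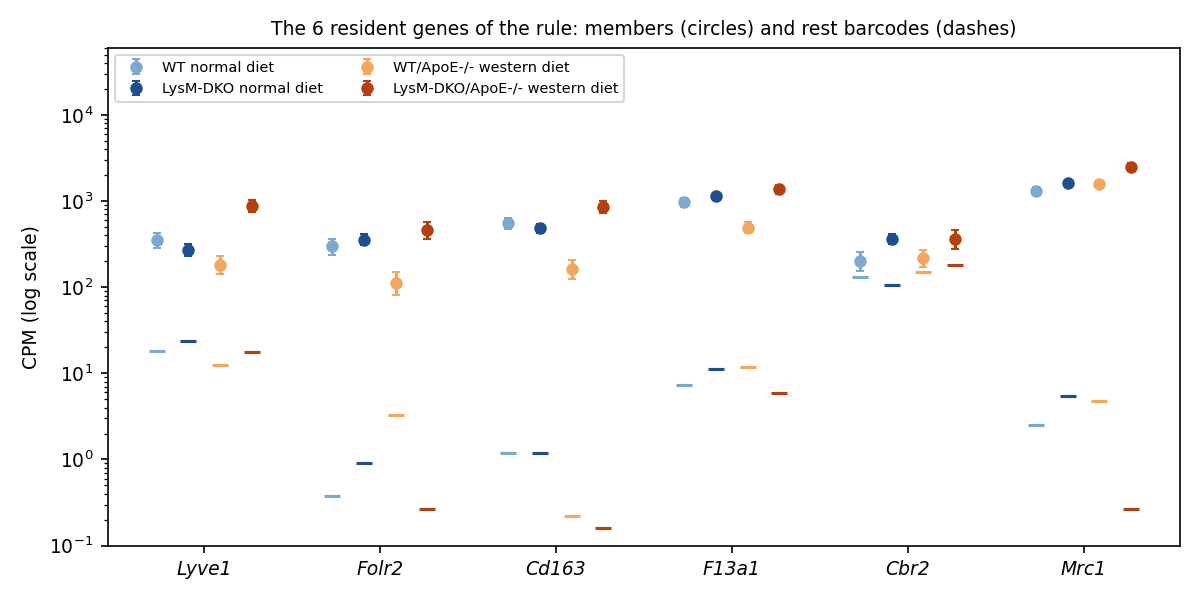
CPM (log scale) of the 6 resident genes that chose the cells, 1 circle per library with exact 95% Poisson bars, and dashes for the rest barcodes of the same library. Mrc1 lies far above the rest in every library, Cbr2 least (201 against 131 CPM in WT and 364 against 107 CPM in LysM-DKO on normal diet).

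Most members carried several resident genes at once. All 6 were seen in 13, 27, 4 and 15 cells, and the median number seen was 4, 4, 3 and 5. A single resident gene was seen in 3, 6, 23 and 1 members; in WT/ApoE-/- the gene was Mrc1 in 16 of these 23 cells, Cbr2 in 6 and Folr2 in 1. Lyve1 itself was seen in 30 of 66, 51 of 117, 22 of 81 and 44 of 56 members, and Folr2 in 35, 61, 23 and 30. In WT/ApoE-/- Mrc1 was seen in 72 of 81 members, so the genes of the label were seen in fewer of them than Mrc1.

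The cells varied widely in antigen presentation genes. The summed level of 7 MHC class II genes, which load and display peptides to CD4 T cells, had a median per cell of 13152, 17307, 3765 and 8411 CPM. The 10th and 90th percentiles were 211 and 30921 CPM in WT, 818 and 42175 in LysM-DKO, 0 and 39969 in WT/ApoE-/-, and 0 and 38903 in LysM-DKO/ApoE-/-. The spread within a library was much wider than the distance between library medians. The part of counting error in this spread was not tested.

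**Figure D3:**
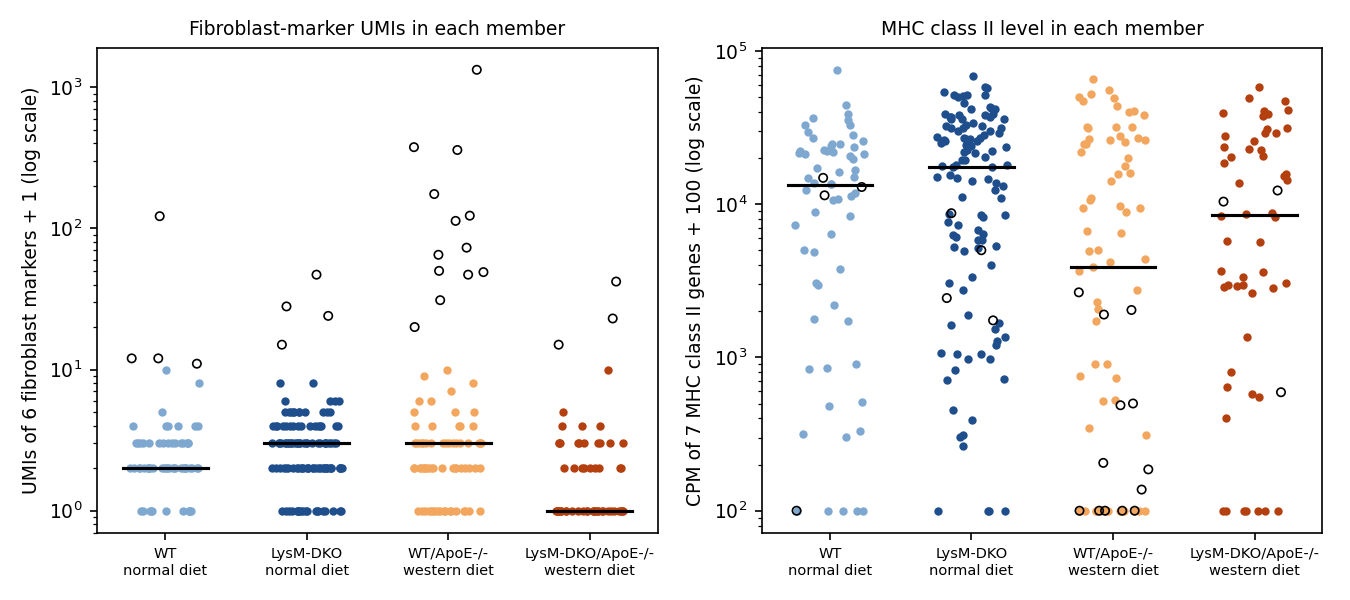
Left, UMIs of the 6 fibroblast markers plus 1 in each member; right, summed CPM of the 7 MHC class II genes plus 100 in each member, both on log axes, 1 point per cell with a black bar for the library median and open circles for cells with 10 or more fibroblast-marker UMIs. The 13 open circles of WT/ApoE-/- reach 1327 fibroblast UMIs, and MHC class II has 90th percentiles of 30921 CPM or more in every library.

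To compare cells of unequal depth, each was thinned to 1000 UMIs and split by whether Lyve1 was then seen. It was seen in 18 of 66 members (27.3%) in WT, 19 of 117 (16.2%) in LysM-DKO, 12 of 81 (14.8%) in WT/ApoE-/- and 35 of 56 (62.5%) in LysM-DKO/ApoE-/-. Without thinning, the cells with a Lyve1 UMI numbered 30, 51, 22 and 44. Lyve1 is a gene of the selection, so the split is a description of cells already chosen. The summed level of 18 resident genes outside the selection was higher in Lyve1-seen cells in all 4 libraries, by log2 0.82, 0.69, 1.66 and 0.92. Its level in the Lyve1-seen cells lay close together over the libraries, at 11224, 11171, 11866 and 11394 CPM.

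Several single genes pointed the same way in each library. The interval held 0 for Fcna (-0.0052 to 1.74) and Cd9 (-2.48 to 0.21) in LysM-DKO, and for Il1b (-7.61 to 1.74) in LysM-DKO/ApoE-/-. Cd209f, a C-type lectin of the DC-SIGN family, was higher in Lyve1-seen cells by log2 1.99, 1.17, 2.99 and 1.87, and Fcna, a ficolin that binds sugars on microbes, by 2.18, 0.93, 2.28 and 1.92. Ccl24, the eosinophil attractant eotaxin-2, was higher by 0.94, 2.43, 3.44 and 1.36. Cd9, a tetraspanin found on lipid-associated macrophages, was lower by log2 values of -1.62, -0.88 and -2.50 in WT, LysM-DKO and LysM-DKO/ApoE-/-, and had 0 against 162 UMIs in WT/ApoE-/-, 39 of them outside the fibroblast-marker cells. Il1b, which encodes interleukin-1 beta, had 1, 0, 0 and 1 UMIs in Lyve1-seen cells against 22, 27, 71 and 3 in the others. MHC class II did not follow Lyve1 in 1 direction by a like amount: it was lower in Lyve1-seen cells in LysM-DKO (7735 against 21216 CPM, log2 -1.45) and in WT/ApoE-/- (6532 against 11852, -0.86), but near equal in WT (13057 against 14428, -0.14) and in LysM-DKO/ApoE-/- (13432 against 13890, -0.05).

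On normal diet the members of LysM-DKO and WT were close. Of 2433 genes with at least 50 UMIs over both libraries, 39 (1.6%) were at least 2-fold higher in LysM-DKO and 30 (1.23%) at least 2-fold higher in WT, with a median log2 ratio of -0.01. The ratios add 0.5 to each count. Named genes are, in each direction, the 5 whose interval lay farthest from 0. Both resident genes of the label were within 2-fold, Lyve1 at -0.38 (interval -0.74 to -0.0020) and Folr2 at 0.25 (interval -0.11 to 0.63).

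Higher in LysM-DKO on normal diet were a chemokine pair, an endothelin receptor, a histidine-degrading enzyme and an estrogen receptor. Ccl8, a monocyte attractant made by resident macrophages, had 86 UMIs in WT and 581 in LysM-DKO (274 and 1106 CPM), log2 2.01 (interval 1.68 to 2.36). It was seen in 15 of 66 and 63 of 117 members. Cxcl1, a neutrophil attractant, was at 1571 and 3016 CPM, log2 0.94 (interval 0.79 to 1.09), a little under 2-fold. Ednrb, the endothelin receptor type B, had 21 and 128 UMIs in 8 and 48 cells, log2 1.84 (interval 1.19 to 2.61). Hal, histidine ammonia-lyase, which starts the breakdown of histidine, had 8 UMIs in 1 WT cell and 99 UMIs in 35 LysM-DKO cells, log2 2.81 (interval 1.85 to 4.14). That WT cell was a fibroblast-marker cell, and without such cells WT had 0 Hal UMIs. Esr1, estrogen receptor alpha, had 2 and 80 UMIs, log2 4.27 (interval 2.68 to 7.65), but its level in the rest barcodes also differed, at 26.9 CPM in WT and 105 in LysM-DKO.

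Higher in WT on normal diet were Lyz2, Vsig4, Tnfaip2, Cxcl3 and Stmn1. Lyz2, the gene that the LysM label names, was at 4108 CPM in WT and 1159.7 in LysM-DKO, log2 -1.82 (interval -1.97 to -1.68), while Lyz1, its near-identical neighbour whose reads can be split between the 2 genes, was at 102 and 208 CPM, log2 1.01 (interval 0.45 to 1.64). Vsig4, a complement receptor that restrains T cells, had 59 and 11 UMIs, in 8 and 5 cells, log2 -3.11 (interval -4.24 to -2.22). Tnfaip2, a gene induced by TNF, was at 217 and 66.7 CPM, log2 -1.69 (interval -2.33 to -1.09). Stmn1, a microtubule regulator of dividing cells, had 91 and 64 UMIs, log2 -1.25 (interval -1.74 to -0.77), and the top WT cell held 29 of them. Cxcl3, a neutrophil attractant, had 60 and 33 UMIs, log2 -1.60 (interval -2.26 to -0.97), with 35 in 1 WT cell. Without the top cell of each library the ratios of Stmn1 and Cxcl3 were -0.79 and -0.93, under 2-fold.

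By function, few genes of any list were past 2-fold on normal diet. Of 17 measured resident genes outside the selection, 1 was higher in LysM-DKO (Clec10a, a galactose-binding lectin, log2 1.20) and 2 were lower (Cd209g and Vsig4), with a median of 0.06 against -0.01 for all genes. Of 13 chemokines Ccl8 was higher and Ccl24 lower (72 and 57 UMIs, log2 -1.08 (interval -1.61 to -0.56)), median 0.10. Of 13 cytokine and NF-kB genes Osm, the cytokine oncostatin M, was higher and Ccrl2, a chemerin receptor, lower, median -0.13. The 6 MHC class II genes measured were all above 0 and all within 2-fold, median 0.40. None of 9 cholesterol efflux and storage genes passed 2-fold, median -0.02; Abca1, the transporter that loads apolipoproteins with cholesterol, was at 386 and 569 CPM, log2 0.56 (interval 0.25 to 0.88). None of 16 dissociation stress genes passed it either, median -0.28. Of 10 lipid-associated genes 1 was higher, the fatty acid binding protein Fabp4 (log2 1.66), whose level in the rest barcodes was above that of the members in both libraries (466 and 982 CPM against 185 and 587).

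Among all members, a larger share of genes was past 2-fold between the genotypes on western diet than on normal diet. Of 1952 genes measured, 76 (3.89%) were at least 2-fold higher in LysM-DKO/ApoE-/- and 140 (7.17%) at least 2-fold higher in WT/ApoE-/-, with a median log2 ratio of -0.01. Without the fibroblast-marker cells 42 genes were higher and 50 lower of 1288 measured. With the selection applied to cells thinned to 1000 UMIs the order of the diets turned. Normal diet then had 53 higher and 32 lower of 1331 genes (6.39%), and western diet 23 higher and 20 lower of 928 (4.63%). The resident genes that chose the cells were higher in LysM-DKO/ApoE-/-, which is a description of cells picked on them. Cd163 was higher by log2 2.37, Lyve1 by 2.27, Folr2 by 2.01 and F13a1 by 1.48. Without the fibroblast-marker cells these were 2.02, 1.79, 1.54 and 1.02. Mrc1 was at 0.66, and at 0.20 without those cells, and Cbr2 was higher within 2-fold among all members. In WT/ApoE-/- 12 of 81 members had a resident sum of exactly 3, the limit, and 23 had a single resident gene seen.

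Hal, Retnla, Ccl24 and Ifi203 were among the leading genes on the higher side. Hal had 1 UMI in WT/ApoE-/- and 76 in 21 of the 56 LysM-DKO/ApoE-/- cells, log2 6.81 (interval 4.86 to 12.71), and 0 and 74 UMIs without the fibroblast-marker cells. Retnla, a secreted protein of alternatively activated macrophages, had 57 UMIs in 3 cells and 186 UMIs in 10 cells, log2 2.83 (interval 2.41 to 3.30) (2.33 without those cells), with 37 and 70 of them in the top cell of each library. Ccl24 had 11 and 43 UMIs, log2 3.06 (interval 2.12 to 4.21), and 2.57 (interval 1.64 to 3.72) without the fibroblast-marker cells. It was seen in 7 of 81 and 22 of 56 members and stood at 0.0604 and 0.0534 CPM in the rest barcodes. Ifi203, an interferon-induced nucleic acid sensor of the PYHIN family, had 31 and 63 UMIs, log2 2.15 (interval 1.52 to 2.83), and 1.89 without those cells.

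The leading genes lower in LysM-DKO/ApoE-/- were mostly carried by the fibroblast-marker cells of WT/ApoE-/-. Spp1, osteopontin, had 1727 UMIs in WT/ApoE-/- and 6 in LysM-DKO/ApoE-/-, log2 -6.92 (interval -8.48 to -5.91); without those cells it was at 453 and 38.5 CPM, log2 -3.45 (interval -5.04 to -2.39). Its rest barcodes stood at 4256 and 313 CPM. Hp, haptoglobin, and Mmp13, a collagenase, each had all but a few UMIs in the single barcode described above. Against a floor of 3 UMIs they were at least 25.6-fold and at least 18.8-fold lower in LysM-DKO/ApoE-/-, and without the fibroblast-marker cells Hp was at 0 in both libraries and Mmp13 at 4.08 and 0 CPM. Sfrp2, a Wnt inhibitor of fibroblasts, had 134 and 5 UMIs, with 67 in 1 WT/ApoE-/- cell. Slc7a11, the cystine transporter of the glutathione pathway, was the exception: it had 63 UMIs spread over 15 WT/ApoE-/- cells, no more than 8 in any, and 0 in LysM-DKO/ApoE-/-, at least 9.55-fold lower against the floor; 61 of the 63 lay outside the fibroblast-marker cells.

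By function, genes of resident macrophages and complement receptors leaned to LysM-DKO/ApoE-/-. Of 12 measured resident genes outside the selection 4 were at least 2-fold higher and none lower, median 0.91; without the fibroblast-marker cells 2 were, median 0.51. The 2 were Maf, a transcription factor of tissue macrophages (log2 1.28, without those cells 1.12), and Ltc4s, which makes leukotriene C4 (1.32, 1.01). Pf4, a platelet chemokine also made by resident macrophages, went from 1.07 to 0.57. The members differed in make-up too: after thinning, Lyve1 was seen in 14.8% of those of WT/ApoE-/- and 62.5% of those of LysM-DKO/ApoE-/-. Summed over the whole list, Lyve1-seen cells were at 11866 and 11394 CPM and the other members at 3768 and 6038 CPM. The part of make-up in these ratios was not tested. Other genes of the same list were under the minimum of 50 UMIs: Cd209f had 13 and 35, Cd209d 3 and 28, Fcna 12 and 36, and Timd4, a receptor for dying cells, 3 and 16. Their log2 ratios were 2.53 (interval 1.61 to 3.61), 4.16 (interval 2.66 to 6.72), 2.68 (interval 1.75 to 3.80) and 3.37 (interval 1.75 to 5.97). These use all members and enter neither the counts nor the medians above. Cd209g and Vsig4 of this list were under the minimum too, and their ratios are not given.

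Other lists moved too. Of 4 measured monocyte-derived genes 2 were lower (Fn1 and S100a4), median -1.27, and 0 without the fibroblast-marker cells, median -0.11. Of 14 chemokines 5 were higher (Ccl24, Ccl9, Ccl12, Ccl6 and Ccl3) and Cxcl12, a fibroblast product, was lower, median 0.60; without the fibroblast-marker cells 2 of 13 were higher and the median was 0.24. C5ar1, the C5a receptor, was at log2 1.39 (interval 0.72 to 2.07) and C3ar1, the C3a receptor, at 1.15 (interval 0.75 to 1.55), and at 0.88 and 0.69 without those cells. In all, 3 of 8 complement and Fc receptor genes were higher, and 0 of 8 without the fibroblast-marker cells, median 0.58 and 0.53. Il1b was lower, 71 and 4 UMIs in 10 and 2 cells, log2 -2.85 (interval -4.93 to -1.59) (-3.34 without those cells). Lgals3, galectin-3 of lipid-laden cells, had 101 and 12 UMIs, log2 -1.88 (interval -2.94 to -1.07) (-1.62 without those cells). The MHC class II median changed sign, from 0.30 to -0.29, when the fibroblast-marker cells were left out. Of 6 cholesterol genes none passed 2-fold, median 0.18 and -0.11. Abcg1, the sterol exporter named in the series title, had 3, 8, 24 and 2 UMIs, too few to count in any contrast between genotypes. Of 16 dissociation stress genes Jun and Atf3 were higher, and 15 of 16 were above 0, median 0.48; the part of tissue digestion in these ratios was not tested.

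Across both diets few genes moved the same way. Of 1808 genes measured in both genotype contrasts, Hal and Ednrb were at least 2-fold higher in LysM-DKO on each diet, and Lyz2, S100a4 and Dcn lower. Lyz2 had 1289, 609, 952 and 176 UMIs and log2 ratios of -1.82 and -1.30. Ednrb was at log2 1.84 (interval 1.19 to 2.61) and 1.43 (interval 0.71 to 2.18), and at 0.997 on western diet without the fibroblast-marker cells, at the edge of 2-fold. S100a4, a calcium-binding protein, was at -2.06 on western diet and, without those cells, at -0.40, and Dcn, the fibroblast proteoglycan decorin, at -3.12 and -0.65. Leaving the cells out gave Hal and Cd38, an ectoenzyme that consumes NAD, on the higher side, of 1264 genes, and Lyz2 was still on the lower side. The count that the pair of contrasts shares is small beside the 15 higher and 16 lower on normal diet and the 73 and 91 on western diet. The 2 genotype contrasts share no library.

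Hal (GRCm38 chr10:93488768-93519304, plus strand) stood out in both. It was seen in 1 of 66, 35 of 117, 1 of 81 and 21 of 56 members, at 25.5 and 189 CPM under normal and 2.56 and 427 CPM under western diet, and at 0.423 to 1.38 CPM in the rest barcodes. Both LysM-DKO libraries were above both WT libraries. The same order held outside the members, in the foamy sets: 55.3 and 142 CPM in the LysM-DKO libraries on normal and western diet, against 0 and 8.88 CPM in the WT libraries. The WT normal diet foamy set holds only 10 cells, under the 20 asked for in the comparison of sets below. Lyz2 lies on the same chromosome (chr10:117277331-117282321, minus strand), and how the LysM allele was made is not given in the sources used here. Whether this position bears on the values of Hal was not tested.

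Opposite directions on the diets were found for 5 genes. Ccl24 was lower in LysM-DKO on normal diet and higher on western diet, at 229 and 109 CPM under normal and 28.1 and 242 CPM under western diet. Osm (38.2 and 89.5 CPM under normal and 118 and 56.2 CPM under western diet) and Pdgfa, the A chain of platelet-derived growth factor (57.4 and 126 CPM under normal and 174 and 50.6 CPM under western diet), had the reverse pattern, as did Rgs5, a pericyte gene, while Casp4, an inflammatory caspase, went the way of Ccl24. Ccl24 and Osm kept the pattern without the fibroblast-marker cells. Pdgfa was in the rest barcodes at or above the level of the members in 3 of the 4 libraries.

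**Figure D4:**
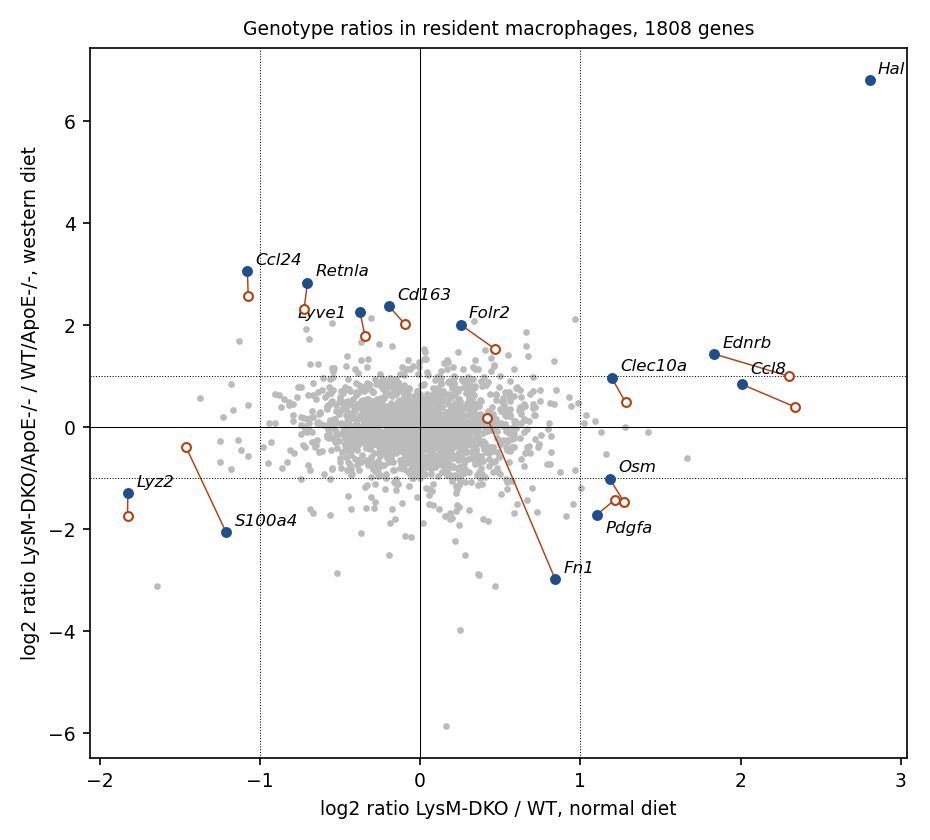
Log2 ratio of LysM-DKO over WT in the members on normal diet (x axis) and of LysM-DKO/ApoE-/- over WT/ApoE-/- on western diet (y axis), 1 point per gene of the 1808 measured in both. Grey points and, for labelled genes, filled blue circles use all members, and joined open red circles leave out the fibroblast-marker cells (none is drawn for Hal, then at 0 UMIs in WT); Hal lies up and right at 2.81 and 6.81, and Lyz2 down and left at -1.82 and -1.30.

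Between the WT libraries, western diet with ApoE-/- against normal diet, 220 of 2299 genes (9.57%) were at least 2-fold higher in WT/ApoE-/- and 144 (6.26%) at least 2-fold higher in WT, with a median log2 ratio of 0.10. Median-ratio scaling in place of total UMIs shifted all values by 0.11 and gave 170 higher and 175 lower, that is 49.3% in place of 60.4% of those past 2-fold on the higher side. Without the fibroblast-marker cells 84 of 1666 were higher and 95 lower. The 5 leading higher genes were Spp1, Hp, Mmp13, Igfbp5, an insulin-like growth factor binding protein, and Sfrp2. Log2 ratios of Spp1, Mmp13, Igfbp5 and Sfrp2 were 6.91, 3.73, 3.24 and 3.11 with those cells and 3.49, -2.11, -0.48 and 1.43 without. Hp had 0 UMIs in WT, so it was at least 45.2-fold higher against a floor of 3 UMIs, and without those cells it was at 0 in both libraries. Of these 5, Spp1 alone stayed past 2-fold with an interval above 2-fold, 3.49 (interval 2.65 to 4.59). Without those cells its level in WT/ApoE-/- members was well below that of the rest barcodes of that library, as given above.

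The leading genes lower in WT/ApoE-/- kept their direction without those cells. Apoe, the lipoprotein ligand, went from 2461 UMIs to 9, log2 -8.34, as the genotype label states. Ifit1, an interferon-induced RNA sensor, had 93 and 3 UMIs, log2 -5.06 (interval -7.58 to -3.68), and -4.51 without the fibroblast-marker cells. Retnla had 394 and 57 (-3.10 (interval -3.54 to -2.70)), Vsig4 59 and 5 (-3.75 (interval -5.55 to -2.58)), and Areg, the growth factor amphiregulin, 161 and 23 (-3.10 (interval -3.82 to -2.49)). The 5 stayed at log2 -2.56 or below without those cells.

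Between the LysM-DKO libraries 93 of 2143 genes (4.34%) were at least 2-fold higher in LysM-DKO/ApoE-/- on western diet and 147 (6.86%) at least 2-fold higher in LysM-DKO on normal diet, median 0.07. Among the leading higher genes were Ms4a6b, a membrane protein of macrophages (187 and 691 CPM, log2 1.89 (interval 1.49 to 2.29)), and Frmd4b, a scaffold protein (107 and 382, 1.84 (interval 1.31 to 2.38)). Fkbp5 and Zbtb16, both glucocorticoid-induced genes, were also higher, at log2 2.02 (interval 1.26 to 2.82) and 1.96 (interval 1.29 to 2.65). Zbtb16 was at 64.7 and 253 CPM in the members and at 155 and 237 CPM in the rest barcodes. In the WT libraries Fkbp5 was at 2.36 (interval 1.36 to 3.72) and Ms4a6b at 0.90 (interval 0.40 to 1.44).

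Lower in LysM-DKO/ApoE-/- than in LysM-DKO on normal diet were Apoe (4010 and 3 UMIs), Rsad2, Ccl5, Gdf15 and Slc7a11. Rsad2, the antiviral enzyme viperin, had 431 and 7 UMIs, log2 -4.29 (interval -5.71 to -3.33). Ccl5, a T cell attractant, had 353 and 9, -3.66 (interval -4.87 to -2.79). Gdf15, a stress-induced hormone, had 642 and 32, -2.74 (interval -3.33 to -2.25). Slc7a11 had 79 and 0, at least 8.93-fold lower. Of 16 dissociation stress genes 3 were higher in LysM-DKO/ApoE-/- (Junb, Jun and Btg2) and 1 was lower (Hspa1b), median 0.35. Slc7a11 was thus at 0 in 1 of the 4 libraries and at 134 to 161 CPM in the others, while the foamy set of that same LysM-DKO/ApoE-/- library stood at 324 CPM.

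Interferon-stimulated genes had medians below 0 on western diet in both pairs, which share no library with each other. Of 5 interferon-stimulated genes measured in the WT pair 3 were lower and none higher, median -1.79, and -1.35 without the fibroblast-marker cells; of 6 in the LysM-DKO pair 4 were lower, median -1.01. Hmox1, heme oxygenase, which breaks down heme, was at 2814 and 3085 CPM under normal and 521 and 708 CPM under western diet, log2 -2.43 (interval -2.66 to -2.21) and -2.12 (interval -2.40 to -1.86), and -1.98 and -2.02 without the fibroblast-marker cells. Of growth factors 2 of 6 and 4 of 6 were lower: Gdf15 at -2.43 and -2.74, Hbegf, an EGF receptor ligand, at -1.91 and -1.63, and in the LysM-DKO pair Tgfb1 and Pdgfa too. In the WT pair Pdgfa was higher, at 1.57. Of cytokine and NF-kB genes 4 of 12 were lower and 2 higher in the WT pair (Osm at 1.58 and Il1b at 1.29), and 3 of 11 lower and none higher in the LysM-DKO pair. Il10 and Il1rn, both dampers of inflammation, were at -1.77 and -2.53, and -1.79 and -4.07. Tnf was at -1.04 and -1.02, and -0.59 and -0.94 without the fibroblast-marker cells. With the selection applied to cells thinned to 1000 UMIs, the WT pair turned for Il10 (1.15), Il1rn (0.14) and Tnf (0.085), and was at -0.88 for Hmox1 and -0.37 for Gdf15. The rest barcodes were also lower for Hmox1 (221, 344, 37.9 and 21.3 CPM).

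Resident genes outside the selection had a median below 0 in the WT pair and above 0 in the LysM-DKO pair, a difference that was not tested. In the WT pair 5 of 15 resident genes outside the selection were lower on western diet and none higher, median -0.50, but 2 of 14 without the fibroblast-marker cells, median 0.07. In the LysM-DKO pair 2 of 15 were higher, Ltc4s and Maf, and none lower, median 0.31. Of the chemokines 7 of 14 were lower and 1 higher (Cxcl12, 1.92) in the WT pair, and 3 lower and 1 higher (Ccl8, 1.13) of 13 without those cells. In the LysM-DKO pair 3 of 13 were lower and 2 higher (Ccl12, 1.16, and Ccl24, 1.16). The medians were -0.85, -0.56 and -0.58. With the thinned selection 4 of the 7 turned positive in the WT pair: Ccl2 (0.58), Ccl7 (1.16), Cxcl10 (0.48) and Cxcl2 (0.35), while Ccl3 and Ccl4 were at -0.068 and -0.020. Ccl4, an attractant of monocytes and T cells, was at 16082 and 17274 CPM under normal and 5284 and 7742 CPM under western diet. Cholesterol genes were lower in 2 of 8 (Apoe and Mylip, which targets the LDL receptor for degradation) and in 4 of 9. Both counts hold Apoe, whose loss is the ApoE-/- genotype itself. The others in the LysM-DKO pair were Nceh1, a cholesterol ester hydrolase, at -1.59, Npc1, the lysosomal cholesterol exporter, at -1.35, and Soat1, which esterifies cholesterol, at -1.04. Abca1 was within 2-fold in both pairs (0.10 and -0.23).

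**Figure D5:**
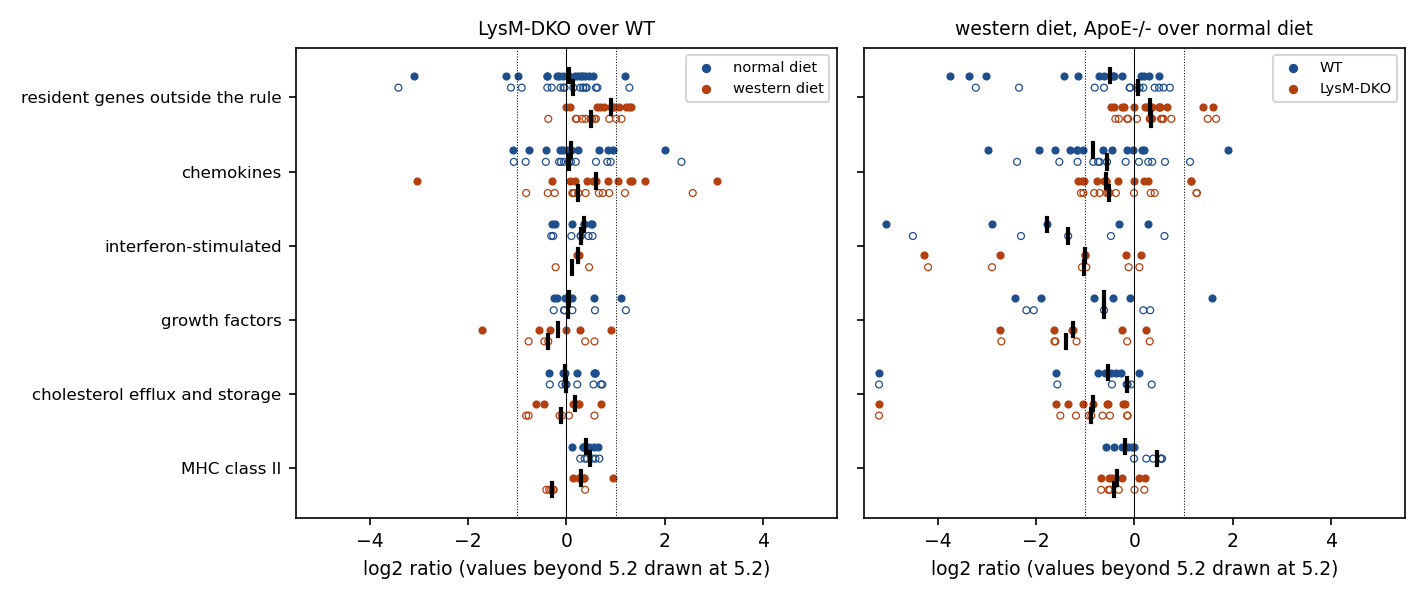
Log2 ratios of the measured genes of 6 function lists, LysM-DKO over WT on the left (blue normal, red western diet) and western diet with ApoE-/- over normal diet on the right (blue WT, red LysM-DKO). Filled points use all members, open points leave out the fibroblast-marker cells, black bars are medians, and values beyond 5.2 are drawn at 5.2; the resident list on western diet has a genotype median of 0.91, and 0.51 without those cells.

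Set against the foamy set of the same library, the members are described without a test, since the selection used these cells' own counts. In the 3 libraries with at least 20 cells of both sets, 67 of 4007 genes (1.67%) were at least 2-fold higher in members in every library and 66 (1.65%) at least 2-fold lower. Median UMIs per cell in LysM-DKO, WT/ApoE-/- and LysM-DKO/ApoE-/- were 4448, 3769 and 2788 in members and 6853.5, 4144 and 5729 in the foamy sets. Among genes the selection did not use, Clec10a was at 324, 118 and 230.4 CPM in members of LysM-DKO, WT/ApoE-/- and LysM-DKO/ApoE-/-, against 75.1, 2.83 and 23.7 CPM in their foamy sets. Ednrb was higher by log2 2.31, 4.07 and 4.15, Bmp2, a bone morphogenetic protein, by 2.25, 3.26 and 3.48, Retnla by 2.01, 5.42 and 4.88, and Mgl2, a lectin paralog of Clec10a, by 1.72, 3.81 and 3.97. The others on that side were Slc15a2, Hpgd, Lrp6, Sema4a and Fbxl18.

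Lower in members were Itgax, Fabp5, Lgals3, Acp5 and Abcg1, among 10 leading genes. Itgax, the integrin CD11c, had 1, 12 and 0 UMIs in members against 29, 594 and 88 in the foamy sets. Fabp5, a fatty acid binding protein, was at 49.5, 30.7 and 16.9 CPM in members and 2629, 3210 and 2670 CPM in the foamy sets. Lgals3 was lower by log2 values of -2.72, -3.72 and -5.38, and Acp5, an acid phosphatase, by -3.69, -2.20 and -3.16. Abcg1 was at 15.2, 61.3 and 11.2 CPM in members against 71.2, 458 and 369 CPM, while Abca1 ranged from -1.01 to 0.95. The others were Cadm1, Il7r, Gpr137b, Gngt2 and AA467197. Of 13 measured resident genes outside the selection 8 were at least 2-fold higher in every library (median 2.16, all genes 0.02), and of 14 lipid-associated genes 4 were lower in every library (median -1.79).

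Against the neither set, usable in LysM-DKO on normal diet and WT/ApoE-/-, 162 of 4243 genes (3.82%) were higher in members in both and 32 (0.754%) lower. These 194 became 359 genes without the fibroblast-marker cells. Median UMIs per cell were 4448 and 3769 in members and 3928 and 1693 in the neither sets, while the limits of the selection are absolute sums. The part of depth was not tested. Retnla had 405 and 57 UMIs in members and 0 in both neither sets. Pf4 was at 1329 and 787 CPM against 172 and 23.0, Cd36, a fatty acid and lipoprotein scavenger receptor, at 531 and 258 against 70.0 and 20.7, and C4b, a complement component, at 387 and 276 against 19.1 and 41.4. Abca9, Slc9a9, Ltc4s, Clec10a and Ednrb were also among the 10 leading genes, and Mmp13, whose UMIs in WT/ApoE-/- lay in 1 barcode. Lower were Fabp5 (log2 -5.33 and -3.36), Plac8, a monocyte gene (-3.23 and -4.06), Cxcl9, an interferon-gamma-induced chemokine (-2.85 and -3.53), Bcl2a1a, Cadm1, Lgals3, Tmem208, Irf7, Plekhg3 and C3. Tmem208 and Plekhg3 each had 11 UMIs in members and 9 in the neither set of LysM-DKO, with an upper interval bound of -0.0024. Of 12 resident genes outside the selection 10 were higher in both libraries (median 2.75, all genes -0.03), and of 13 chemokines 8 were. Ccl2, the main monocyte attractant, was higher by log2 1.88 and 2.11, and Cxcl16, which also binds oxidized lipoprotein, was at -1.16 and -0.56.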

How the data were processed

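Single-cell RNA libraries of 4 mouse aorta samples (10x Genomics 3' chemistry) were deposited as whole-number counts, UMIs per gene and barcode, with no normalization by the authors. Per the file headers, both matrices from normal diet were written by Cell Ranger 6.0.1, both from western diet by version 6.1.2. The submitters' processing notes list Cell Ranger 6.1.2, Seurat 4.1.0 and mm10. The labels put 1 library in each of 4 groups. Members and gene lists were chosen with earlier results of these data known.

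A barcode passed with 1000 UMIs or more and no more than 10% of them mitochondrial. UMIs were summed over the members of a library and divided by their total (CPM). Genes with at least 50 UMIs over both libraries were measured, and 2-fold was the limit for counting a gene. Ratios add 0.5 to each count. The 95% intervals are exact binomial for shares, Newcombe for differences of shares and exact for ratios of Poisson counts; they cover counting error only. Genes are named where they belong to a function list and have at least 20 UMIs over the members, or are among the 5 per direction and contrast whose interval bound lies farthest from 0, with a level in the higher library at least that of the rest barcodes. Against another set, the 10 per direction whose smallest log2 ratio in size over the libraries was largest are named. That ranking used neither the intervals nor the rest barcodes. The genes of the selection, the epsins, Lyz1, Lyz2, Apoe, Xist, Ddx3y and Acta2 are named in any case; some genes that this rule names are not reported here. Genes brought up for a pattern over the libraries (such as the foamy-set values of Hal and Slc7a11) were chosen after their values were seen, as was leaving out cells with 10 or more fibroblast-marker UMIs.

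Doublets were kept in the counts: scrublet in scanpy 1.11.5 marked by its own threshold 2.48% of scored barcodes in WT and 0 to 0.0808% in the others, so the highest-scoring 0.8% per 1000 barcodes were marked instead, among them 6, 4, 2 and 4 members. Gene positions are of GRCm38 from GENCODE M21, which holds 32158 of the 32285 gene IDs (99.61%). Python 3.11.15, numpy 2.4.6, scipy 1.17.1 and pandas 2.3.3 were used. The ratio intervals and 2-fold calls were tested on simulated Poisson counts, and the binomial interval on simulated shares. The selection, thinning, doublet marking and comparison of sets were not tested in this way.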

Additional observations from a re-analysis of the deposited data

Results flagged for a closer look

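The genotype ratio of Ccl24 pointed one way on normal diet and the other way on western diet: the western diet log2 ratio minus that on normal diet was 4.13. For Osm this difference was -2.19 and for Pdgfa -2.82. Among C1q-high cells the genotype difference in the share of resident macrophages was 47.6 percentage points larger on western diet than on normal diet, with opposite signs. With the selection applied to cells thinned to 1000 UMIs, the normal diet share was 51.9% for WT (27 of 52) against 57.3% for LysM-DKO (75 of 131). Under western diet it was 6.81% (44 of 646) against 42.7% (50 of 117). The point differences then had the same sign, and no interval was computed for them. With 1 library per group none of these differences was tested. The erythroid and fibroblast markers and the depth given above also differed between these libraries, and their part was not tested.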

How the results depend on the processing

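No paired analysis was possible because each group has 1 library. Shares of passing barcodes, in the order WT, LysM-DKO, WT/ApoE-/- and LysM-DKO/ApoE-/-, were 0.851, 1.42, 0.589 and 0.689%. With the selection applied after thinning to 1000 UMIs the first 3 were 0.348, 0.911 and 0.320%. At 2000 UMIs or more LysM-DKO was 1.74%, WT/ApoE-/- 0.909% and LysM-DKO/ApoE-/- 0.581%, which turns the western diet order; at 5% mitochondrial UMIs or less the western diet libraries were 0.870 and 1.18%; a resident sum of 5 gave 0.451% in WT/ApoE-/-; a foam sum of 0 gave 1.17, 0.393 and 0.504% in the last 3; without cells with 1 resident gene WT/ApoE-/- was 0.422%. Genes past 2-fold numbered 69 and 216 for genotype on normal and western diet and 364 and 240 for diet in WT and LysM-DKO. A minimum of 20 UMIs gave 365, 728, 1015 and 786, and one of 200 UMIs 7, 41, 81 and 44. For genotype on western diet and diet in WT, a foam sum of 0 gave 115 and 229, the thinned selection 43 and 93, and leaving out the fibroblast-marker cells 92 and 179. Against the neither set 194 genes passed, and 359 without the fibroblast-marker cells.

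Signs turned for these log2 ratios. Under the thinned selection they were Ccrl2 (0.027) on normal diet, Fn1 (0.78), Hp (0.057) and Igfbp5 (1.82) for genotype on western diet, and for diet in WT Ccl2 (0.58), Ccl7 (1.16), Cxcl10 (0.48), Cxcl12 (-0.15), Cxcl2 (0.35), Fn1 (-1.17), Hp (-0.51), Igfbp5 (-1.36), Il10 (1.15), Il1rn (0.14), Plin2 (0.48), Sfrp2 (-0.51) and Tnf (0.085). Without the fibroblast-marker cells they were Fn1 (0.18) and Igfbp5 (0.86) for genotype on western diet, and Cd9 (-0.026), Igfbp5 (-0.48) and Mmp13 (-2.11) for diet in WT. Hp, at 0 UMIs in both western diet libraries without those cells, had 0.65 from the added 0.5 counts alone, which is no turn. Under the thinned selection Hp and Sfrp2 had equal values for diet in WT, which may come from the added counts too. With a foam sum of 0 they were Mmp13 (0.89) for genotype on western diet and Lpl (-0.68) and Mmp13 (-3.88) for diet in WT. Without the top cell they were Areg (-0.14) for genotype on western diet and Mmp13 (-1.48) for diet in WT. The cause was not tested. Depth limits LysM-DKO/ApoE-/- most, where 3 UMIs are 16.9 CPM.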
